A study of Mus musculus with 6 samples.

Results

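The 10 genes described here encode secreted ADAMTS proteases of the extracellular matrix (Adamts1, Adamts2, Adamts4, Adamts5, Adamts7, Adamts9 and Adamts12), the procollagen-cleaving protease Bmp1, its enhancer protein Pcolce and the membrane-anchored protease Adam12. They are the rows of the deposited count table whose Ensembl identifier carries one of these mouse symbols, and all 10 were found among the 18124 genes listed. The cells were mesenchymal stem cells of the Col1-GFP genotype, in which a collagen 1 promoter drives a green fluorescent protein, sorted from the quadriceps of 6 male mice by that fluorescence together with surface Sca-1. At passage 4 they spent 72 hours in medium taken from senescent or from control bone marrow-derived macrophages, and bulk RNA was sequenced in 3 libraries per medium.

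Macrophages of both kinds came from the marrow of wild-type mice and were differentiated for 7 days with M-CSF. Senescent macrophages had then received 300 µM hydrogen peroxide for 3 hours, the same again 3 days later, and 14 further days of culture. Control macrophages had no stated peroxide treatment, and the length of their culture is not stated, so senescence, time in culture and peroxide treatment of the macrophages cannot be told apart. Media of both kinds were collected over 48 hours, collected again, and pooled. The age of the mice is not stated, and the labels do not tie the libraries to separate mice or batches of medium, so the spread behind each p-value is that of these libraries and may be technical only. The study's title places the comparison in work on macrophage senescence after ligament injury, and the comparison here asks how the conditioned media differ in their effect on the matrix-processing enzymes of these muscle stromal cells.

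ADAMTS proteases are secreted zinc enzymes that bind matrix through thrombospondin repeats and cut large matrix proteins outside the cell. Adamts4 and Adamts5 are the main aggrecanases, which cut aggrecan and versican, and Adamts1 and Adamts9 cut the same kind of proteoglycan. Adamts2 removes the amino-terminal propeptide of fibrillar procollagens and Bmp1 removes the carboxy-terminal propeptide, a step that the non-enzymatic protein Pcolce speeds up, so that collagen can assemble into fibrils. Adamts7 and Adamts12 bind and cut cartilage oligomeric matrix protein (COMP). In skeletal muscle, versican cleavage by ADAMTS proteases accompanies myoblast fusion, and Adam12 is known from fusing myoblasts and from stromal cells of injured muscle.

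The catalytic zinc site that 9 of the 10 genes share is shown first so that the similarity of the enzymes at this site can be set beside how each one changed. The stretches are 33 bases of coding sequence, taken 5′ to 3′ from GENCODE release M21 (build GRCm38), and capitals mark the codons of the 3 zinc-binding histidines and the catalytic glutamate. Pcolce, which is not a protease, had no match.
Adamts1: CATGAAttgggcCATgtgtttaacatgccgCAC
Adamts9: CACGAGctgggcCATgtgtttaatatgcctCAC
Adamts4: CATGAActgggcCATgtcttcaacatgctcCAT
Adamts5: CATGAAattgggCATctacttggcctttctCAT
Adamts2: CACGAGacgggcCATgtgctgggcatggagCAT
Bmp1: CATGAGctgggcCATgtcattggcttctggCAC
Adamts7: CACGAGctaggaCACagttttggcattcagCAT
Adamts12: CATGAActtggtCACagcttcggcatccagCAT
Adam12: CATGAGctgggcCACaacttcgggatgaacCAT

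Adamts1 and Adamts9 matched at 28 of 33 bases, Adamts1 and Adamts4 at 27, and the COMP-cleaving pair Adamts7 and Adamts12 at 26. Matches did not follow family or role throughout, since Adam12 matched Adamts12 at 25 bases and Bmp1 matched Adamts1 at 23, while Adamts1 and Adamts5 matched at 20. Adamts5 matched the other 8 enzymes at 17 to 21 bases.

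Of the 10 genes, 4 were higher in senescent than in control macrophage medium (Adamts1, Adamts5, Adamts12 and Pcolce), 3 were lower (Adamts7, Adamts9 and Adam12) and 3 did not pass the test (Adamts2, Adamts4 and Bmp1), so that 70.0% were called. A gene was called at an adjusted p below 0.05 in edgeR's quasi-likelihood test. That rule called 49.5% of the 14644 genes tested in either direction, 24.6% as higher and 24.9% as lower. For 7 of the 10 there was no overlap between the libraries of both media, against 55.8% of all tested genes. The median log2 fold change of the 10 was -0.015 and the median absolute log2 fold change 0.18, against -0.000961 and 0.229 over all tested genes, so the median of the set lay close to that of all genes and its members moved in different directions. When libraries were scaled by their totals alone, which lowered the median of all genes to -0.0818, 2 of the 10 were higher and 5 lower. In bulk RNA, fewer cells of a kind and less RNA per cell cannot be told apart.

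**Figure D1:**
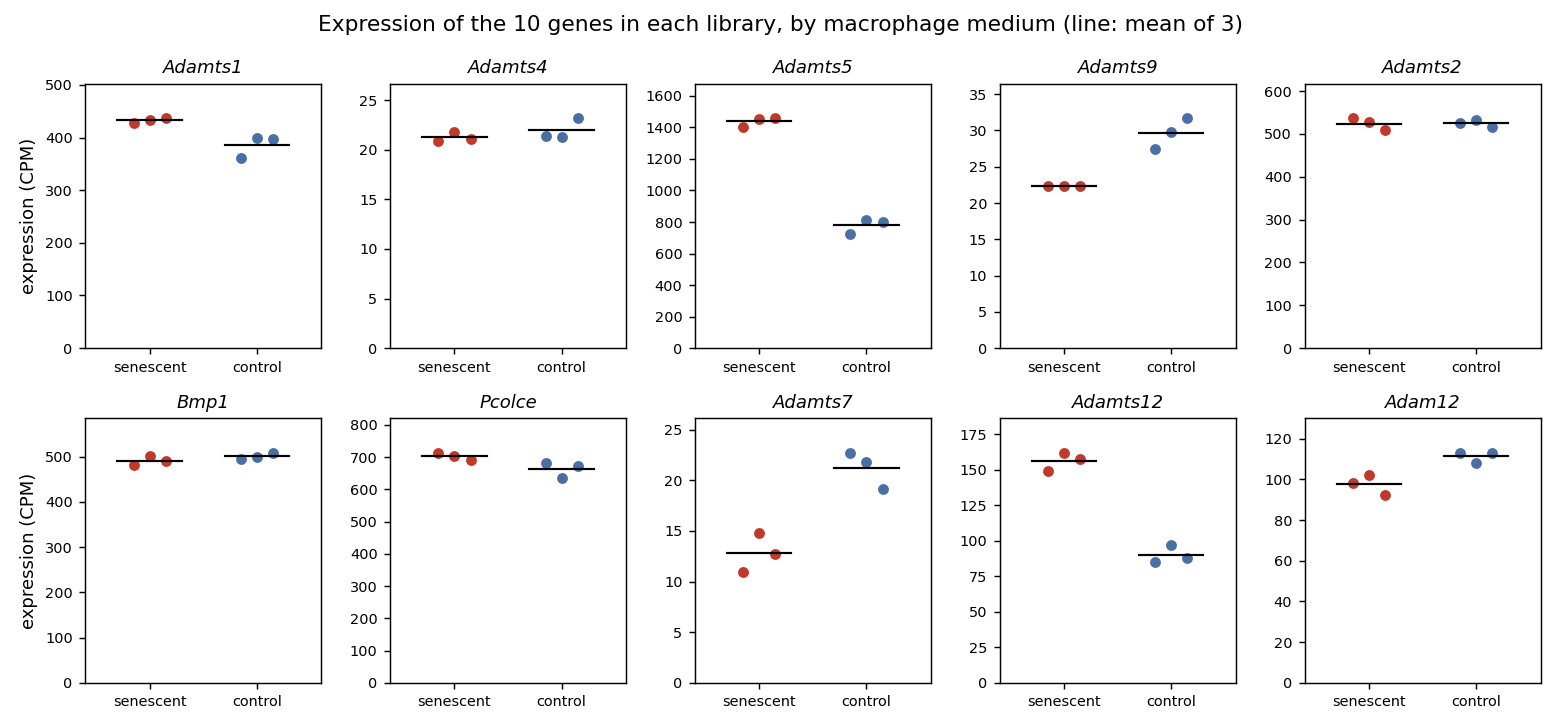
Expression of each of the 10 genes in CPM (counts scaled to library size, vertical axes from 0) in the 3 libraries of senescent and the 3 of control macrophage medium; points are libraries and lines are means. Adamts5 and Adamts12 lie higher and Adamts7 and Adamts9 lower in every senescent-medium library, while Adamts2, Adamts4 and Bmp1 overlap between the media.

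Adamts5 (ENSMUSG00000022894, chromosome 16) had the largest change of the set. Levels are given as CPM, counts scaled to a common library size. Adamts5 had 1403, 1451 and 1459 CPM in the senescent-medium libraries, against 726, 815 and 798 CPM in the control-medium libraries. The lowest senescent-medium library was far above the highest control library. The means were 1438 ± 30.7 and 779.6 ± 47.3 CPM (SD, n = 3 each), a log2 fold change of 0.88 ± 0.037 (SE; 95% interval 0.81 to 0.96), or 1.84-fold, with an edgeR adjusted p of 1.22e-17. Of all tested genes, 7.97% had a larger absolute log2 fold change. The value stayed between 0.83 and 0.92 when any 1 library was left out.

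Adamts1 (ENSMUSG00000022893), a proteoglycan-cleaving enzyme encoded beside Adamts5 on chromosome 16, changed far less. It had 428, 433 and 437 CPM in the senescent-medium libraries and 361, 399 and 397 CPM in the control-medium libraries. The media did not overlap, and the first control library lay below the other two. The log2 fold change was 0.16 ± 0.037 (edgeR adjusted p = 0.00037). With library totals alone it was 0.084 and the call was lost (edgeR adjusted p = 0.0587). In the GENCODE annotation both genes lie on the same strand with 0 protein-coding genes between them.

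Adamts4 (ENSMUSG00000006403, chromosome 1), the second classical aggrecanase, did not pass the test. It had 20.9, 21.8 and 21.1 CPM in the senescent-medium libraries and 21.4, 21.3 and 23.2 CPM in the control-medium libraries, and the media overlapped. Its log2 fold change of -0.043 had a 95% interval of -0.20 to 0.11, an interval that does not reach the change of Adamts5.

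Adamts9 (ENSMUSG00000030022, chromosome 6), which like Adamts1 cuts versican, was lower in senescent macrophage medium. It had 22.4, 22.3 and 22.4 CPM there and 27.4, 29.8 and 31.7 CPM in control medium. All 3 senescent-medium libraries lay below all control libraries and were closer to each other than the control libraries were. The log2 fold change was -0.41 ± 0.071, or 1.33-fold lower (edgeR adjusted p = 1.72e-05). Exons of 2 other genes cover 9.18% and 2.82% of its exon length on the opposite strand, and the strand setting of the counting is not given in the sources used here.

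The enzymes and the enhancer of procollagen processing changed little. Adamts2 (ENSMUSG00000036545, chromosome 11) had 537, 527 and 509 CPM in the senescent-medium libraries and 526, 532 and 516 CPM in the control-medium libraries. Bmp1 (ENSMUSG00000022098, chromosome 14) had 482, 500.1 and 489 CPM in the senescent-medium libraries and 494, 499 and 508 CPM in the control-medium libraries. Both genes overlapped between the media.

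The log2 fold change was -0.00095 ± 0.033 for Adamts2, with a 95% interval of -0.069 to 0.067, and its sign depended on the scaling. For Bmp1 it was -0.028 ± 0.033, with an interval of -0.095 to 0.038. Neither was called (edgeR adjusted p = 0.984 for Adamts2 and 0.499 for Bmp1), and 99.82% and 93.21% of tested genes had a larger absolute log2 fold change than Adamts2 and Bmp1. With library totals alone both were called lower, at -0.082 for Adamts2 and -0.11 for Bmp1 (edgeR adjusted p = 0.0325 and 0.0063).

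Pcolce (ENSMUSG00000029718, chromosome 5), which binds procollagen and speeds its cleavage by Bmp1, had 713, 702 and 691 CPM in the senescent-medium libraries and 683, 635 and 672 CPM in the control-medium libraries. The media did not overlap, and the gap between the lowest senescent-medium and the highest control library was smaller than the SD of the control libraries (25.2 CPM). The log2 fold change of 0.082 ± 0.034, or 1.06-fold, passed narrowly (edgeR adjusted p = 0.045). The call was lost when any library other than control replicate 1 was left out (0.051 to 0.10 over the 6 fits), with library totals alone (0.00045) and after removal of trends with transcript length and GC content (0.055).

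**Figure D2:**
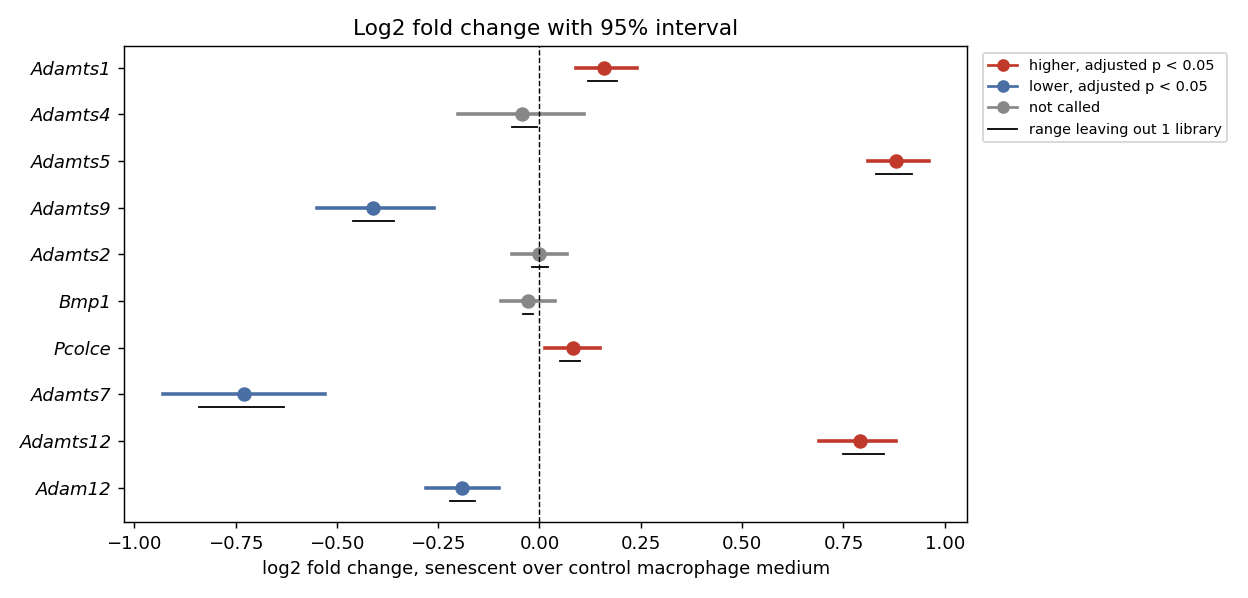
Log2 fold change of each gene, senescent over control macrophage medium (horizontal axis), with its 95% interval (thick lines) and the range over fits that leave out 1 library (thin black lines); colour marks genes called higher, called lower or not called. Adamts5 (0.88) and Adamts12 (0.79) stand furthest to the right and Adamts7 (-0.73) furthest to the left, while the interval of Adamts2 is centred on 0; with library totals alone Adamts2 and Bmp1 were called lower, and Adamts1 and Pcolce were not called.

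The COMP-cleaving pair moved in opposite directions. Adamts12 (ENSMUSG00000047497, chromosome 15) had 149, 162 and 158 CPM in the senescent-medium libraries, against 85.2, 97.4 and 88.2 CPM in the control-medium libraries. Adamts7 (ENSMUSG00000032363, chromosome 9) had 10.9, 14.8 and 12.7 CPM in the senescent-medium libraries, against 22.7, 21.8 and 19.1 CPM in the control-medium libraries. Each gene was separated between the media, Adamts12 upward and Adamts7 downward.

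Adamts12 rose by a log2 fold change of 0.79 ± 0.046, or 1.73-fold (edgeR adjusted p = 1.73e-14). Adamts7 was 1.66-fold lower (-0.73 ± 0.098, edgeR adjusted p = 3.43e-07) on 228, 277 and 264 estimated counts in senescent medium and 402, 473 and 339 in control medium. Adamts7 had the widest standard error of the 10 genes. Its log2 fold change ran from -0.84 to -0.63 when 1 library was left out, and that of Adamts12 from 0.75 to 0.85. Exons of Tbc1d2b cover 1.94% of the Adamts7 exons on the opposite strand.

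Adam12 (ENSMUSG00000054555, chromosome 7), whose protease and disintegrin domains sit on the cell membrane, had 98.2, 102 and 92.4 CPM in the senescent-medium libraries and 113, 108 and 113 CPM in the control-medium libraries. The highest senescent-medium library lay below the lowest control library. The fall was small, with a log2 fold change of -0.19 ± 0.044, or 1.14-fold lower (edgeR adjusted p = 0.000469), and 56.58% of all tested genes had a larger absolute log2 fold change.

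Levels of different genes were compared as CPM per kilobase of exon. In senescent macrophage medium the order was led by Pcolce (184 ± 2.90), Adamts5 (133 ± 2.85) and Adamts1 (81.6 ± 0.832), followed by Adamts2 (56.2 ± 1.56) and Bmp1 (55.3 ± 1.00), whose libraries overlapped. In control medium it was led by Pcolce (173 ± 6.58), and Adamts1 (72.7 ± 3.98) and Adamts5 (72.2 ± 4.38) overlapped, as did Bmp1 (56.4 ± 0.762) and Adamts2 (56.2 ± 0.895). Per kilobase, Adamts5 thus stood apart above Adamts1 in senescent but not in control medium. In CPM, Adamts5 was above Adamts1 in control medium too (779.6 and 386). The overlap there rests on the exon lengths used, 10.79 kb for Adamts5 and 5.3 kb for Adamts1, which count all annotated exons.

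The lower end of the order also differed. Adamts12 (14.3 ± 0.587 CPM per kilobase) lay above Adam12 (9.22 ± 0.450) in senescent medium, and Adam12 (10.5 ± 0.305) above Adamts12 (8.27 ± 0.583) in control medium, with no overlap in either. Adamts4, Adamts7 and Adamts9 had the lowest levels in both media, 4.43 ± 0.10, 2.04 ± 0.304 and 1.49 ± 0.00285 CPM per kilobase in senescent medium and 4.56 ± 0.221, 3.37 ± 0.299 and 1.97 ± 0.143 in control medium.

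**Figure D3:**
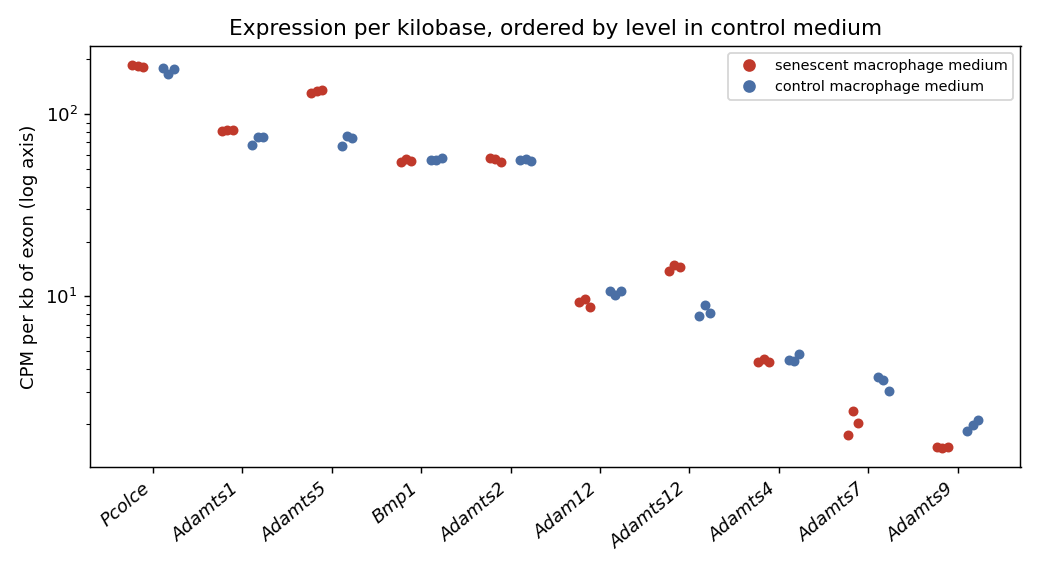
Expression of the 10 genes as CPM per kilobase of exon (log axis) in each library of senescent and control macrophage medium, ordered by the mean in control medium. Adamts5 and Adamts1 overlap in control medium (72.2 and 72.7), whereas in senescent medium Adamts5 lies above Adamts1 (133 and 81.6).

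The 4 proteoglycan-cleaving enzymes together summed to 221 ± 3.71 CPM per kilobase in senescent medium and 152 ± 8.54 in control medium. Adamts5 made up 60.4% ± 0.282 of that sum in senescent medium and 47.7% ± 0.333 in control medium (SD, n = 3 each). Adamts1 made up 37.0% ± 0.270 of it in senescent medium and 48.0% ± 0.126 in control medium. Adamts4 and Adamts9 took 2.01% and 0.674% in senescent medium, and 3.02% and 1.30% in control medium. In either medium nearly all of this transcript pool was thus Adamts5 and Adamts1, and Adamts5 held the larger share in senescent medium. The sum of Adamts2 and Bmp1 was 111 ± 1.63 CPM per kilobase in senescent medium and 113 ± 0.626 in control medium. The proteoglycan-cleaving sum over the procollagen-processing sum was therefore 1.98 ± 0.0527 in senescent medium and 1.35 ± 0.0702 in control medium.

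Ratios of counts within a library do not depend on how libraries are scaled, and 6 of them were tested with an exact permutation test over libraries. The smallest possible two-sided p of that test with 3 against 3 libraries is 0.1. These 6 ratios belong to a design that was itself chosen with earlier results of these data known. Adamts5 over Bmp1 had log2 ratios of 1.54, 1.54 and 1.58 in senescent medium and 0.55, 0.71 and 0.65 in control medium. Adamts5 over Adamts2 had log2 ratios of 1.38, 1.46 and 1.52 in senescent medium and 0.46, 0.61 and 0.63 in control medium. No library of one medium reached the range of the other. The differences were 0.91 for Adamts5 over Bmp1 and 0.89 for Adamts5 over Adamts2 on the log2 scale, and both exact permutation p-values were 0.1 (0.12 adjusted over the 6 ratios).

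Among pairs of genes grouped under the same process or substrate, Adamts1 over Adamts5 averaged -1.73 ± 0.017 in senescent medium and -1.02 ± 0.014 in control medium (log2, SD, n = 3 each), a difference of -0.72. Adamts12 over Adamts7 averaged 3.62 ± 0.16 in senescent medium and 2.09 ± 0.16 in control medium, a difference of 1.53, or 2.88-fold, the largest of the 6. Pcolce over Bmp1 averaged 0.52 ± 0.041 in senescent medium and 0.41 ± 0.060 in control medium, a difference of 0.11. These 3 ratios separated the media, each with an exact permutation p of 0.1, the smallest this design allows (0.12 adjusted).

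Adamts4 over Adamts2, the ratio of the other classical aggrecanase, overlapped between the media. It averaged -4.62 ± 0.053 in senescent medium and -4.58 ± 0.091 in control medium, and its exact permutation p was 0.6. The shift of aggrecanase over procollagen-processing transcripts was therefore seen with Adamts5 as the aggrecanase and not with Adamts4, and that difference between the ratios was not itself tested.

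**Figure D4:**
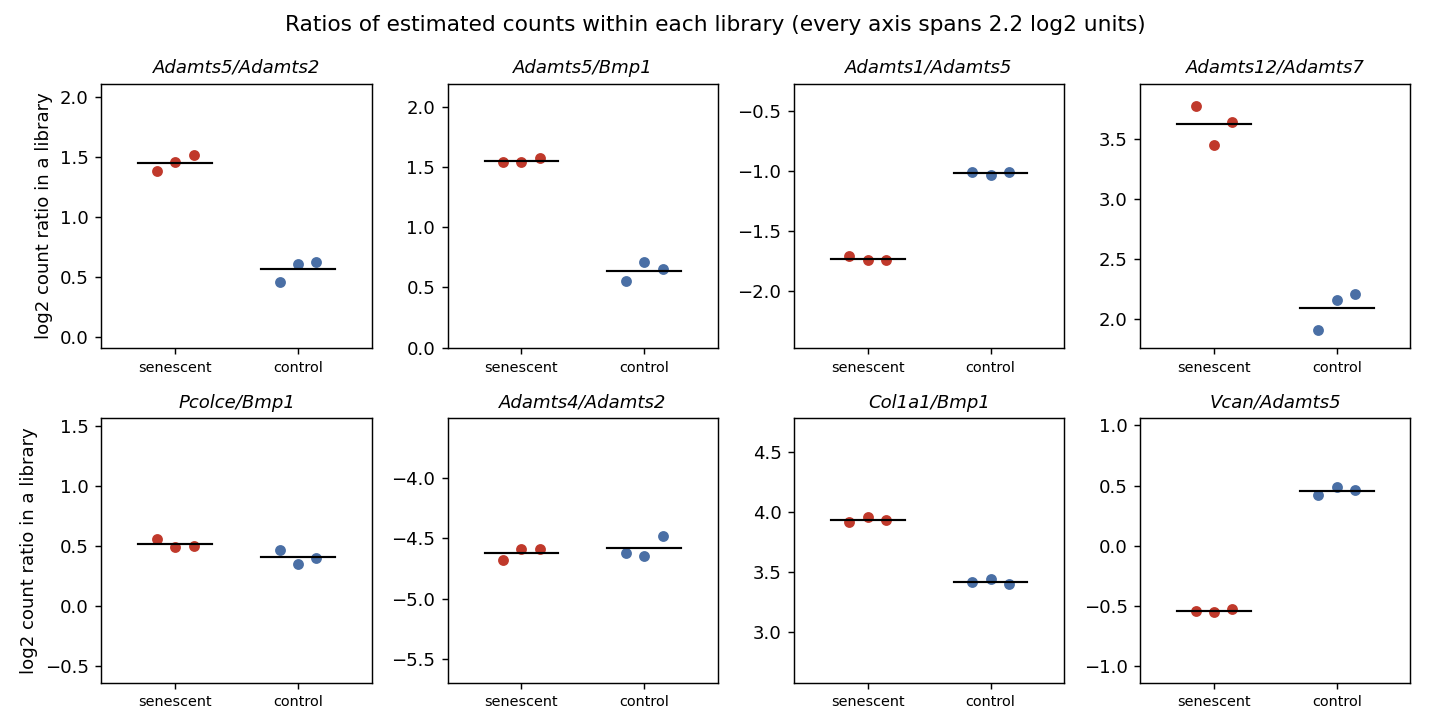
Log2 ratio of the estimated counts of a pair of genes within each library (vertical axes, each spanning 2.2 log2 units), for senescent and control macrophage medium; points are libraries and lines are means. Adamts5 over Adamts2, Adamts5 over Bmp1, Adamts12 over Adamts7 and Col1a1 over Bmp1 lie higher in senescent medium, Adamts1 over Adamts5 and Vcan over Adamts5 lie lower, and Adamts4 over Adamts2 overlaps.

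Other genes of these families were counted in lists of related genes. Of 4 further proteoglycan-cleaving ADAMTS genes, 1 was tested and it was higher: Adamts15, at 2.63 ± 0.489 CPM in senescent medium and 1.46 ± 0.108 CPM in control medium (log2 fold change 0.84 ± 0.24, edgeR adjusted p = 0.00502). Adamts8 had 0 to 7 counts in a library, below the filter, and 2 were not analysed here. Of 7 further procollagen-processing genes, 4 were tested, 2 were higher, 0 were lower and 2 were not called, with a median log2 fold change of 0.30.

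Adamts14, which like Adamts2 removes amino-terminal propeptides, had 3.82 ± 0.206 CPM in senescent medium and 1.44 ± 0.486 CPM in control medium (log2 fold change 1.43 ± 0.24, edgeR adjusted p = 6.91e-06). Tll1, a close relative of Bmp1, had 9.59 ± 0.791 CPM in senescent medium and 6.84 ± 0.489 CPM in control medium (0.48 ± 0.12, edgeR adjusted p = 0.0013). Both rose, at levels far below those of Adamts2 and Bmp1. Adamts3 (log2 fold change -0.43, edgeR adjusted p = 0.358) and Pcolce2 (0.12, edgeR adjusted p = 0.289) did not pass the test.

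Among 6 other ADAMTS proteases 2 were tested and 0 were called, including Adamts6, at 16.7 ± 4.02 CPM in senescent medium and 22.3 ± 1.81 CPM in control medium (edgeR adjusted p = 0.0544). Adamts6 was called lower in DESeq2, in limma-voom, with library totals alone, with replicate numbers in the model and without senescent replicate 3. Its log2 fold change in the last of these fits was -0.63. Of the ADAMTS-like genes, which lack the protease domain, 5 were tested, 3 rose and 2 fell. Adamtsl4 (0.46), Adamtsl5 (0.44) and Adamtsl1 (0.42) rose by similar log2 fold changes, and Adamtsl3 fell by 0.16. Thsd4 also fell, with 0.526 ± 0.347 CPM in senescent medium and 1.07 ± 0.00516 CPM in control medium, and lost its call in 5 of the 6 fits that left out a library.

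Of 9 other ADAM genes, 5 rose, 2 fell and 2 did not pass the test, with a median log2 fold change of 0.21. They encode membrane-bound relatives of Adam12, not all of which are active proteases. Adam19 had 285 ± 11.4 CPM in senescent medium and 198 ± 8.79 CPM in control medium (0.53 ± 0.039), and Adam15 had 296 ± 7.95 CPM in senescent medium and 217 ± 6.01 CPM in control medium (0.45 ± 0.036). Adam17, which sheds cytokines and growth factors from the cell surface, fell, with 69.6 ± 3.48 CPM in senescent medium and 84.7 ± 2.18 CPM in control medium (-0.28 ± 0.047). Adam9 (0.093) was called higher and Adam23 (-0.091) lower, each losing its call in 3 of the 6 fits that left out a library, Adam9 also with library totals alone (0.012) and Adam23 also with length and GC trends removed (-0.045). The edgeR adjusted p-values were 7.88e-13 for Adam19, 5.66e-12 for Adam15 and 9.57e-06 for Adam17. Antisense exons cover 20.55% of the Adam15 exons, and those of 2 genes cover 8.25% and 6.75% of the Adam19 exons.

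The proteases are made as inactive precursors, and most are activated by furin-type convertases. Furin itself fell to 154 ± 4.15 CPM in senescent medium, against 259 ± 1.19 CPM in control medium (log2 fold change -0.75 ± 0.036, edgeR adjusted p = 2.84e-17). Of the 4 convertase genes listed, 3 fell and 1 rose. Pcsk5 (-0.29) and Pcsk7 (-0.18) fell with Furin, Pcsk7 losing its call in DESeq2 (adjusted p = 0.0806) and when senescent replicate 1 or control replicate 2 or 3 was left out, whereas Pcsk6 rose (0.45).

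Inhibitors, cofactors and uptake receptors were mixed, with 3 of 9 tested genes higher, 3 lower and 3 not called. Timp3, the tissue inhibitor known to block aggrecanases, rose to 3064 ± 105 CPM in senescent medium, against 2148 ± 121 CPM in control medium (0.51 ± 0.037, edgeR adjusted p = 3.22e-12), and exons of Syn3 cover 21.28% of its exons on the opposite strand. Timp2 (0.45) and Timp1 (0.17) rose as well, the last losing its call once length and GC trends were removed. Fbln1, a cofactor of Adamts1, fell (-0.45 ± 0.043), as did Sdc4 (-0.22) and the Bmp1-binding matrix protein Postn (-0.15). Lrp1, the receptor that clears Adamts5 from the medium, had a log2 fold change of 0.12 and was not called (edgeR adjusted p = 0.215). It was called higher without senescent replicate 1 or control replicate 2 (0.17 in each). The same held with length and GC trends removed (0.16) and with replicate numbers in the model (0.12). Timp3 over Adamts5, a ratio added after the data were seen and given without a test, was 1.09 ± 0.077 in senescent medium and 1.46 ± 0.022 in control medium on the log2 scale.

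**Figure D5:**
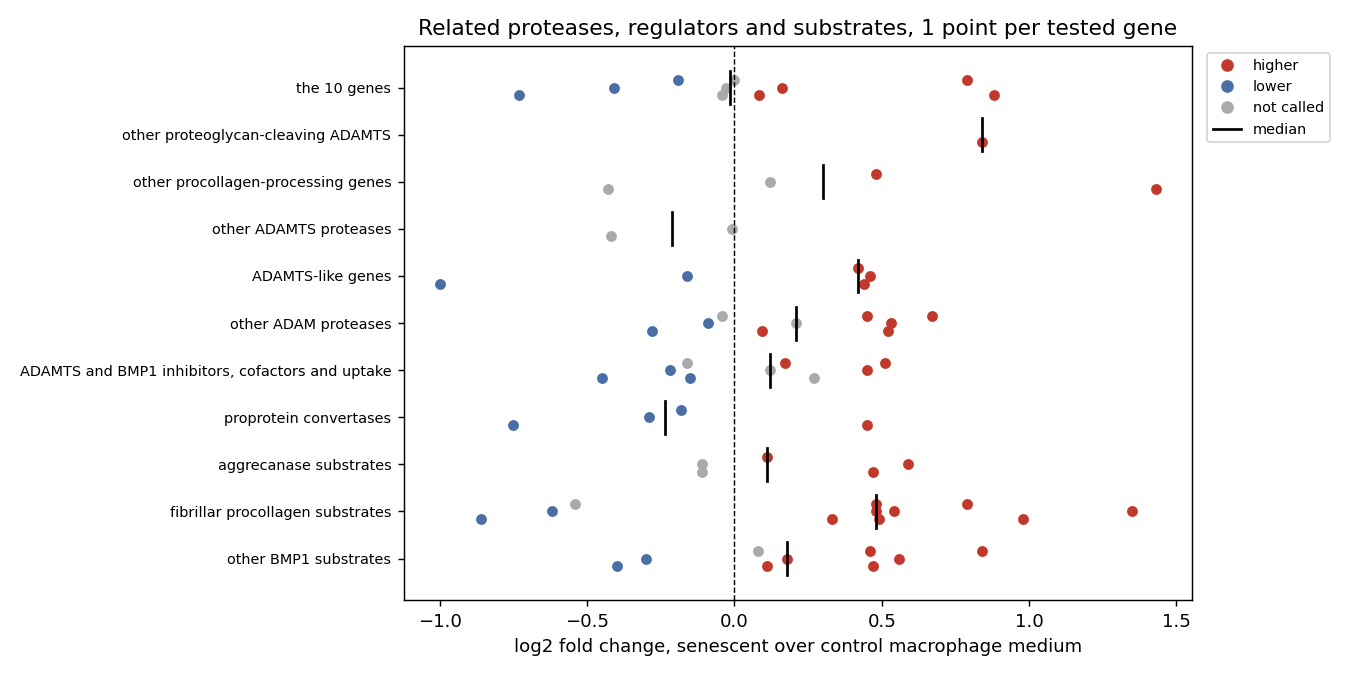
Log2 fold change, senescent over control macrophage medium (horizontal axis), of each tested gene in the set of 10 and in the lists of related proteases, regulators and substrates; points are genes, colour marks the call and black bars are list medians. The 10 genes spread to both sides (median -0.015), convertases lie mostly on the lower side (median -0.23), and fibrillar procollagens mostly on the higher side (median 0.48).

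Among substrates of the proteoglycan-cleaving enzymes, Vcan, which encodes versican, had 989.8 ± 22 CPM in senescent medium and 1071 ± 87.6 CPM in control medium. It was not called (log2 fold change -0.11, edgeR adjusted p = 0.063). Without control replicate 1 (-0.18), with library totals alone (-0.20) and with replicate numbers in the model (-0.11), it was called lower. Comp, the substrate of Adamts7 and Adamts12, was close to Vcan in its change (-0.11, edgeR adjusted p = 0.0948) and was called lower without control replicate 2 (-0.16), with library totals alone (-0.19) and with length and GC trends removed (-0.13). Acan, which encodes aggrecan, was not analysed here. Of the 5 substrates tested 3 rose, 0 fell and 2 were not called, and the 3 were Fbln2 (0.59), Dcn (0.47) and Bgn (0.11), the last losing its call without senescent replicate 1 and with library totals alone. The log2 ratio of Vcan over Adamts5 was -0.54 ± 0.012 in senescent medium and 0.46 ± 0.032 in control medium, a difference of -1.0, also added after the data were seen and not tested.

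The fibrillar procollagens, a class that includes substrates of Adamts2 and Bmp1, mostly rose. Of 11 tested, 8 were higher, 2 lower and 1 not called, with a median log2 fold change of 0.48. The count is of the class, and not every chain in it need be cut by both enzymes. Col1a1 had 7516 ± 229 CPM in senescent medium and 5361 ± 69.8 CPM in control medium (0.49 ± 0.033, edgeR adjusted p = 1.27e-13). Col1a2 (0.54), Col3a1 (0.48), Col5a1 (0.79) and Col5a3 (1.35) rose too, whereas Col27a1 (-0.86) and Col11a1 (-0.62) fell. Log2 ratios of Col1a1 over Bmp1 were 3.92, 3.96 and 3.93 in senescent medium and 3.42, 3.44 and 3.40 in control medium, a difference of 0.52. For Col1a1 over Adamts2 the difference was 0.49. Both ratios were added after the data were seen and were not tested.

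Other Bmp1 substrates were 6 higher, 2 lower and 1 not called of 9, with a median log2 fold change of 0.18. Lox, the collagen cross-linking enzyme that Bmp1 activates, rose by a log2 fold change of 0.18 ± 0.034 (edgeR adjusted p = 5.33e-05). Its relative Loxl1 fell, with 452 ± 8.42 CPM in senescent medium and 596 ± 5.06 CPM in control medium (-0.40 ± 0.033, edgeR adjusted p = 8.46e-12), and Ltbp1 fell as well (-0.30). Col7a1 rose (0.84 ± 0.13). Dcn and Bgn belong to both substrate lists.

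Promoters were available for 5 of the 10 genes (Adamts1, Adamts2, Adamts9, Adamts12 and Pcolce), from RefSeq on build GRCm38.p6, as 250 bases before to 50 bases after the start of the gene. Those of Adamts1, at chr16:85803064-85803363 on the minus strand, and of Adamts9, at chr6:92943485-92943784 on the minus strand, are shown because these enzymes had the most similar zinc sites and opposite changes. Capitals mark GC boxes (GGGCGG or its reverse complement) and, in Adamts1, a TATA box (TATAAA).
Adamts1: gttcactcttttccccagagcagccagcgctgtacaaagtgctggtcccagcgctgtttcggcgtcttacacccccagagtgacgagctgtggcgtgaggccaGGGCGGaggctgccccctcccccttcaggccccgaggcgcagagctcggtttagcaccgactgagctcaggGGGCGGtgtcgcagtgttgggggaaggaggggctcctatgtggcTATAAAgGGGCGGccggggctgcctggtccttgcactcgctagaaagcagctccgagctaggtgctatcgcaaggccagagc
Adamts9: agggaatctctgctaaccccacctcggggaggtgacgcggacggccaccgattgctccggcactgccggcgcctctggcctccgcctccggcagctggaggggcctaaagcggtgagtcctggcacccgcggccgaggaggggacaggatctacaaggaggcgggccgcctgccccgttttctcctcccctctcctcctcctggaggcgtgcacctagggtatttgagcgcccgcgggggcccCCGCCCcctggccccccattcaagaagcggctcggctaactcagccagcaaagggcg

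The Adamts1 window held 3 GC boxes and a TATA box at -32 from the start of the gene, and the Adamts9 window 1 GC box. The Adamts2 window, of a gene that was not called, held 5 GC boxes, that of Pcolce held 1, and that of Adamts12 held 0. On both strands, 35.7% of the 32851 promoters in the table held a GC box and 13.6% held TATAAA. None of the 5 windows held the AP-1 motif TGANTCA (7.8% of promoters), the hypoxia core ACGTG (19.6%), the amino acid response core TGATG (39.3%) or the SMAD box GTCTAGAC (0.2%), which says only that these letters are not in the windows.

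Libraries held 19420700 to 21659400 estimated counts in senescent medium and 17228200 to 21225800 in control medium, and rank correlations were 0.9958 to 0.9967 within and 0.9808 to 0.9824 between media. Stromal markers summed to 14159 to 14684 CPM in senescent medium and 10969 to 11068 CPM in control medium. Most of that sum was Col1a1 and Col1a2, at 7516 and 4139 CPM in senescent medium and 5361 and 2856 CPM in control medium. Of the 9 stromal markers tested 4 rose and 4 fell. Those that rose were Col1a1 (0.49), Col1a2 (0.54), Thy1 (0.29) and Cd34 (0.22). Those that fell were Pdgfra (-0.29), Pdgfrb (-0.30), Eng (-0.24) and Dpt (-0.85). The marker not called was Ly6a, which encodes Sca-1, at 1235 ± 46.8 CPM in senescent medium and 1206 ± 44.7 CPM in control medium. Of the 10 stromal markers Nt5e lay below the filter, at 0 to 10 counts in a library. Of 10 macrophage markers 4 were measured, summing to 15 to 20.1 CPM in senescent medium and 11.9 to 14.3 CPM in control medium. Ptprc and Adgre1 were not analysed here. Most of the macrophage sum was Lyz2, which was higher (log2 fold change 0.80). Csf1r was lower (-0.53), at 3.20 CPM in senescent and 4.62 CPM in control medium. That call was lost in DESeq2 and in 4 of the 6 fits that left out a library. Cd68 was not called (0.53), and Mrc1 lay below the filter. In senescent medium the endothelial markers summed to 26.3 to 33.2 CPM, pericyte and smooth muscle markers to 104 to 118 CPM and the only myogenic marker measured of 6, Des, to 4.33 to 5.86 CPM. In control medium the same sums were 24.2 to 26.5, 102 to 113 and 1.41 to 1.89 CPM. Des was called higher (log2 fold change 1.65, edgeR adjusted p = 4.3e-08), on 25 to 122 estimated counts in a library. Most of the endothelial sum was Tek, at 26.9 CPM in senescent and 23.8 CPM in control medium. Tek was not called (0.18). It was called higher without senescent replicate 3 (0.25), with length and GC trends removed (0.22) and with replicate numbers in the model (0.18). Kdr was higher (1.25), at 1.68 CPM in senescent and 0.710 CPM in control medium. Vwf was not called (-0.077), and Pecam1 lay below the filter, at 0 to 5 counts in a library. Within the pericyte and smooth muscle list Cspg4 rose (0.97), Myh11 fell by 1.00 and Notch3, the most abundant, was not called (-0.0048). Abcc9 was not called (0.81, edgeR adjusted p = 0.0606). It was called higher without senescent replicate 3 (1.02) and with length and GC trends removed (0.87). The part of such cells in the changes of the 10 genes was not tested.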

How the data were processed

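Bulk RNA from 6 libraries, 3 per conditioned medium, was read from the authors' deposited table of estimated counts per Ensembl gene, which are not normalized. Per the submitters' processing notes, the tools STAR and DESeq2 and the build mm39 are listed, without their roles. For the counter, annotation release and strandedness, nothing is given in the sources used here. Every listed gene had at least 10 counts over the 6 libraries, and 70.3% to 72.8% of values lay within 0.01 of a whole number. Groups and replicate numbers came from the sample titles. The 18092 symbols matched came from GENCODE M21 (GRCm38), so coordinates of the files are not given.

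Values were rounded to whole numbers and tested with edgeR 4.0.16 (robust quasi-likelihood F-test, TMM scaling, filterByExpr, two-sided) in R 4.3.3. The model held the medium alone, with Benjamini-Hochberg adjustment over 14644 genes at 0.05. All 10 members passed the filter. Each standard error was derived from the log2 fold change and its F statistic. CPM uses TMM-adjusted library sizes, and the exon length is the union of annotated exons. The fit was first tested on simulated data. Ratios were taken on log2 counts within a library with an exact permutation test over libraries. Alternatives were DESeq2 1.42.0, limma-voom (limma 3.58.1), other scalings, filters and thresholds, a replicate block, each library left out, removal of the most abundant feature (2.78% to 5.29% of a library) and of length and GC trends.

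The members, the lists and the design were chosen with earlier results of these data known. Named genes are the 10 members and, of each other list, the 3 tested genes with the smallest adjusted p and the 2 with the highest mean CPM. Some listed genes below the filter or not analysed are named as well. Other genes are named outside this rule, chosen after their values were seen. They are Vcan, Comp, Adamts3, Ly6a, Pdgfra, Eng, Dpt, Thy1, Cd34, Thsd4, Col27a1, Col11a1, Postn, Sdc4, Timp1, Pcsk7 and Ltbp1. Adamtsl6 and Thsd4 are names of the same gene, so the ADAMTS-like list holds 7 distinct genes. Over all tested genes, same-numbered libraries did not deviate together (r = 0.02, 0.00 and 0.03), so the main model did not treat the numbers as pairs. Single genes could differ. Replicate 1 was the lowest library in both media for Adamts1, Adamts5, Adamts12 and Bmp1, but not for the other members. A replicate block, run as an alternative, changed the calls of Adamts6, Vcan, Lrp1 and Tek.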

Additional observations from a re-analysis of the deposited data

How the results depend on the processing

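With library totals alone, 2 members were higher and 5 lower, as Adamts2 (-0.082) and Bmp1 (-0.11) became calls while Adamts1 (0.084) and Pcolce (0.00045) lost theirs. All genes then split into 2589 higher and 4813 lower, against 3607 and 3644 with TMM. Adamts2, not called otherwise, changed sign with RLE size factors (0.00014), DESeq2 (0.000083), no filter (0.0022), removal of length and GC trends with or without the replicate block (0.026 in both), and over fits that left out 1 library (-0.018 to 0.022). Pcolce also lost its call at a threshold of 0.01 (0.082), after removal of length and GC trends with or without the block (0.055 in both), and in 5 of 6 fits that left out 1 library (0.051 to 0.10). Removal of those trends moved the log2 ratios Adamts1/Adamts5 to -0.76 and Pcolce/Bmp1 to 0.059. Adamts4/Adamts2 ran from -0.075 to 0.010 when 1 library was left out. The cause of these shifts was not tested.

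With the replicate block, 4 members were higher and 3 lower as without it, and all genes gave 3704 higher and 3698 lower; with the block and the trend removal the members gave 3 and 3, and all genes 3761 and 3677. No member changed its call with the block alone. The block called Adamts6 (-0.43) and Vcan (-0.11) lower, and Lrp1 (0.12) and Tek (0.18) higher. With trend removal as well, the block called Adamts6 (-0.36) and Comp (-0.13) lower, and Lrp1 (0.16) and Tek (0.22) higher. Outside the members, signs changed only for genes that were not called: Adamts10 (-0.11 to 0.072 without 1 library, 0.013 with trends removed, 0.0076 with the block as well), Notch3 (-0.041 to 0.042, 0.036 and 0.036) and Ly6a (-0.048 with library totals, -0.045 and -0.046 with trends removed, without and with the block). The next counts leave out the members, Thy1 and Cd34. They cover the other named genes, together with the ratios added after the data were seen. Of their values under an alternative, 978 kept direction and any call, 35 lost and 24 gained a call, and 12 changed sign. Adamts5, Adamts12, Adamts7, Adamts9 and Adam12 kept direction and call under every alternative run. 3 libraries per medium limit every exact permutation p to 0.1 or more.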
